A study of Sus scrofa with 12 samples.

Results

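Of the 41264 loci in the gene table of this pig jejunum RNA-seq series, 2236 (5.42%) carried no gene name and averaged 1 FPKM or more across 12 libraries. FPKM is the number of fragments mapped to a locus, scaled by its exon length and by the mapped reads of the library. These expressed unnamed loci were 12.7% of the 17650 loci without a gene name, and 15.9% of all loci that reached a mean of 1 FPKM. The other 15414 unnamed loci lay below that mean, and 11835 loci with a gene name lay above it. The loci were chosen by their mean FPKM, so that their abundance is given below as a description, and a locus high in only 1 group can have passed the threshold through that group.

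RNA was taken from the jejunum of 12 piglets in 4 groups of 3. W_Con were sucking piglets of control sows, killed on the day of weaning at 21 days of age. PW_Con were weaned piglets of control sows, 28 days old and 7 days after weaning. W_Res and PW_Res were piglets of the same 2 ages whose sows received a basal corn and soybean diet with 300 mg/kg resveratrol, a plant polyphenol, starting 20 days after breeding and lasting through lactation, while control sows received the basal diet alone. All sows were bred with pooled boar semen, piglets were cross-fostered only within a maternal diet, and the records do not tie a library to a sow. Maternal diet therefore cannot be told apart from sow or litter, and age cannot be told apart from weaning.

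An assembler such as StringTie joins overlapping reads into transcripts and gives each group of overlapping transcripts a locus identifier, here one that begins with MSTRG. A locus stays without a name where no named gene of the annotation was attached to it. Such loci can hold long non-coding RNA, genes missing from an early assembly, detached ends of known genes, or RNA that was not spliced, and the table does not tell these apart.

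All 2236 loci had an MSTRG identifier, and 0 had a GO, KEGG, EC or description entry. No coordinates accompanied the identifiers, so that position and sequence were not analysed here. A single assembled transcript made up 1489 of the loci (66.6%), 318 had 2 transcripts and 429 had 3 or more, up to 83. Among the 11835 named loci at the same threshold, 3107 (26.3%) had a single transcript. An Ensembl transcript was listed in 122 of the unnamed loci (5.46%) and in 10285 of the named loci (86.9%). The median level was 2.09 FPKM for unnamed loci with 1 transcript, 3.1 FPKM for those with more, and 3.69 FPKM for the 122 with an Ensembl transcript.

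Expressed unnamed loci were mostly of low abundance. Their median of the 12-library mean was 2.45 FPKM, against 5.54 FPKM for named loci. Between 1 and 2 FPKM lay 950 of them, 678 between 2 and 5 FPKM, 458 between 5 and 20 FPKM and 137 between 20 and 100 FPKM, while 13 reached 100 FPKM. The 10 most abundant held 18.4% of the summed FPKM of all 2236, and the 127 most abundant held as much as the rest together. For named loci, the 10 most abundant held 11.3%.

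The threshold had no gap in the values around it. Just above it were MSTRG.24228 at 1.00012, MSTRG.26346 at 1.00033 and MSTRG.32916 at 1.00043 FPKM. Just below it were MSTRG.27496 at 0.99927, MSTRG.35215 at 0.99907 and MSTRG.25125 at 0.99880 FPKM.

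Detection across libraries was less complete than for named loci. At least 1 FPKM in all 12 libraries was found for 969 expressed unnamed loci (43.3%) and for 8668 named loci (73.2%). A value of 0 in at least 1 library was listed for 267 unnamed loci (11.9%) and 386 named loci (3.26%). A value listed at 0 may be a failed estimate as well as an absent transcript. In MSTRG.18006, 100% of the FPKM came from 1 library, W_Con2 at 49.2 FPKM, and the other 11 libraries were listed at 0. PW_Res2 held 87.4% of MSTRG.22875, with 15.4 FPKM, and W_Res3 held 85.1% of MSTRG.24562, with 12.7 FPKM. These are the 3 loci that depended most on 1 library.

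Replicates also agreed less. The median within-group standard deviation of log2(FPKM + 1) was 0.395 over unnamed loci and 0.333 over named loci. It was higher for unnamed loci in each class of abundance, for instance 0.402 against 0.345 from 2 to 5 FPKM, and 0.391 against 0.328 from 20 to 100 FPKM. Across loci, the correlation of log2(FPKM + 1) between libraries of 1 group was 0.76 to 0.892 for unnamed and 0.874 to 0.95 for named loci. Genes are not independent replicates, and these values are a description.

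**Figure D1:**
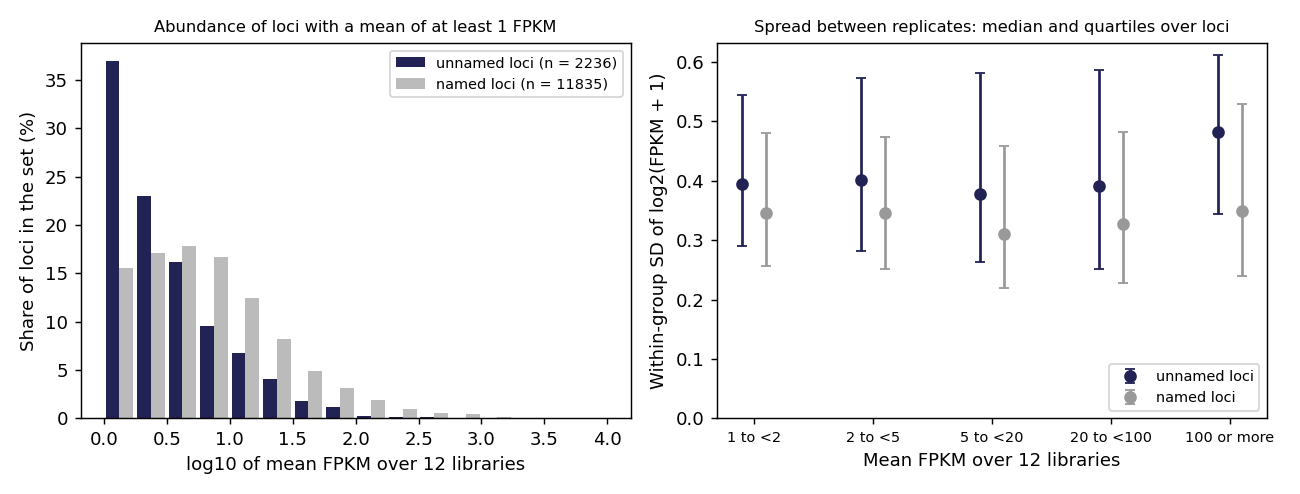
Left, share of loci (%) in each class of log10 mean FPKM over 12 libraries, for 2236 unnamed and 11835 named loci. Right, within-group standard deviation of log2(FPKM + 1) by class of mean FPKM, with points at the median and bars from the first to the third quartile over loci. Unnamed loci sit at lower abundance (median 2.45 against 5.54 FPKM), and their median spread is above that of named loci in each class.

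The share of a library's summed FPKM held by the 2236 loci lay between 4.7% and 5.43%. It was 5.43%, 4.93% and 4.73% in W_Con and 5.24%, 5.25% and 5.12% in PW_Con. In the resveratrol litters it was 5.13%, 5.3% and 5.36% in W_Res and 5.14%, 4.7% and 5.23% in PW_Res. All 4 groups overlapped. Weaned minus sucking libraries gave a difference of -0.0327 percentage points (exact permutation test within maternal diet, two-sided p = 0.84), with 0.173 in control and -0.239 in resveratrol litters. Resveratrol minus control litters gave 0.0289 percentage points (exact permutation test within age, p = 0.875), with 0.235 in sucking and -0.177 in weaned piglets.

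The number of these loci with at least 1 FPKM was 1932, 1902 and 1741 in W_Con, 1837, 1803 and 1814 in PW_Con, 1912, 1847 and 1850 in W_Res and 1853, 1646 and 1730 in PW_Res. Each weaned group overlapped with the sucking group of its diet. Weaned minus sucking libraries gave -83.5 loci on average (exact permutation test, p = 0.1, adjusted p = 0.4 over the 4 tests of this family). When unnamed loci down to a mean of 0.5 FPKM were included, the difference was -408 loci (exact permutation p = 0.015). Of the 2481 loci added by that threshold, 989 had at least 1 FPKM in W_Res2 and 925 in W_Res3, against 231 to 661 in the other 10 libraries. With the loci chosen and tested without W_Res2 and W_Res3, an alternative added after seeing the data, the difference was -291 (exact permutation p = 0.0625). It was -1.83 at a mean of 5 FPKM (exact permutation p = 0.305) and -5 loci when detection meant above 0 (exact permutation p = 0.31). The difference between litters was -31.8 loci (exact permutation test, p = 0.485, adjusted p = 0.875). The smallest p that the tests over all 12 libraries allow is 0.005, and fewer relabellings are possible where libraries are left out. Without W_Con3, the difference between ages was -113 loci with an exact permutation p of 0.015, and without PW_Res1 it was -111 with p = 0.045.

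Libraries W_Res2 and W_Res3 stood apart in the unnamed loci that did not reach the threshold. Of those 15414 loci, 5904 had at least 1 FPKM in W_Res2 and 4632 in W_Res3. W_Res1 had 1788, and the other 9 libraries had 375 to 1261. Unnamed loci as a whole held 8.48% of the summed FPKM in W_Res2 and 8.02% in W_Res3, against 5.48% to 6.81% in the other 10 libraries. The share of the expressed unnamed loci in W_Res2 and W_Res3 lay within the range of the other libraries. Without those 2 libraries, 128 of the 2236 loci would have a mean below 1 FPKM.

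**Figure D2:**
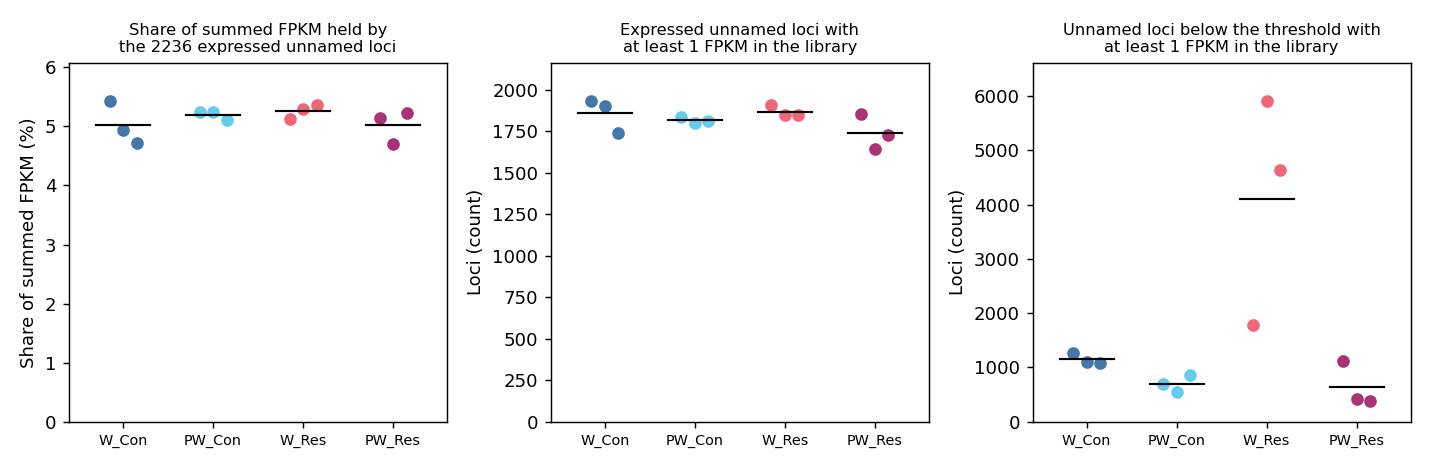
From left to right, share of summed FPKM (%) held by the 2236 expressed unnamed loci, their number with at least 1 FPKM, and the number of unnamed loci below the threshold with at least 1 FPKM. Each point is 1 library, lines are means of 3. In the first panel all groups overlap. In the second, each weaned group overlaps with the sucking group of its diet, and all W_Res libraries lie above all PW_Con libraries. In the third, W_Res2 (5904) and W_Res3 (4632) lie far above the other libraries.

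The labelled tissue was compared with marker lists for cell types. Of 10 markers of enterocytes of the proximal small intestine, 7 were found by name, including VIL1, FABP2 and SI, each with a mean of at least 1 FPKM. Their summed FPKM was 2831 to 9611 over the 12 libraries. Distal small intestine markers (3 of 4 found, FABP6, SLC10A2 and SLC51A) differed widely between libraries of a group. Their sum was 8228, 1337 and 61.6 FPKM in W_Con, 9919, 9064 and 6708 in PW_Con, 221, 51.8 and 6323 in W_Res, and 24495, 89.3 and 99 in PW_Res. For smooth muscle (5 of 6 found), the sums were 148 to 621 in W_Con, 399 to 547 in PW_Con, 192 to 619 in PW_Res, and 1756, 3855 and 644 in the 3 W_Res libraries, which lay above all others. Red blood cell genes (HBB and ALAS2) summed to 30.9 to 74.3 in W_Con, 0.662 to 48.2 in PW_Con, 79.7 to 131 in W_Res and 6.77 to 15.3 in PW_Res. Goblet and secretory markers (3 of 4 found) summed to 516 to 907 in W_Con and 1192 to 2376 in PW_Res, which did not overlap, and the other groups overlapped with both. The lymphocyte sum (7 of 7 found, 192 to 348) overlapped between all groups, but most of it was the B cell gene CD79A, at 143.7 to 229.8 FPKM. The T cell genes CD3E and CD3D and the leukocyte gene PTPRC were lower in W_Res than in W_Con without overlap. CD3E was at 82.5, 49.1 and 54.8 FPKM in W_Con and 12.6, 19.2 and 20.3 FPKM in W_Res, CD3D at 21.3, 15.8 and 14.8 against 2.03, 7.26 and 2.91 FPKM, and PTPRC at 22, 15.5 and 18.1 against 7.93, 10.1 and 11.6 FPKM. Summed crypt and cell division markers (5 of 5 found, 210 to 1328) overlapped between all groups, and pancreas markers (2 of 3 found) stayed at or below 4.55 FPKM. In bulk tissue, fewer cells of a type and less RNA per cell cannot be told apart.

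Group differences were tested with limma on log2(FPKM + 1) over 19049 named and unnamed loci, and differences are on that scale. The standard used in the study, an unadjusted P under 0.05 with a log2 fold change above 1 or below -1, was applied to all 5 comparisons. The replicates are separate piglets, and P measures the spread between these few animals. Fits without W_Res2 and W_Res3 leave W_Res1 as the only library of its group and take its spread from the other groups, so that a call met or missed there is not a replicated test. A linear model with a library covariate, as in Ballgown, was fitted as an alternative and is named below as the Ballgown model.

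One unnamed locus was present in resveratrol litters and nearly absent from control litters at both ages. MSTRG.31575, a single transcript, was at 36.1, 27.7 and 29.1 FPKM in W_Res and at 33.4, 31 and 29.6 FPKM in PW_Res. Control libraries had 0.115 and 0.191 FPKM and a value listed at 0 in W_Con, and 0.211 FPKM and 2 values listed at 0 in PW_Con. All 6 resveratrol libraries thus lay above all 6 control libraries, and the 2 ages overlapped within each diet. The log2 fold change of W_Res against W_Con was 4.85 (standard error 0.172, limma, Benjamini-Hochberg adjusted p = 1.07e-07 over all loci), and that of PW_Res against PW_Con was 4.92 (standard error 0.172, limma adjusted p = 9.15e-08). In sucking piglets it was 1 of 8 loci (0.042% of all 19049) with an adjusted p under 0.05 in limma, and in weaned piglets it was the only one (0.00525%). It was the only expressed unnamed locus with such a p in any of the 5 comparisons. The locus met the standard in both comparisons with each of the 12 libraries left out in turn and in the 9 other settings tried, where limma or Ballgown adjusted p stayed between 5.28e-08 and 0.000536. With W_Res1 as the only W_Res library, its log2 fold change in sucking piglets was 5.08.

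Resveratrol and control litters were further compared at each age. In sucking piglets, 147 of the 2236 unnamed loci (6.57%) met the standard, 72 higher and 75 lower in W_Res, against 4.26% of all loci tested and 4.5% of named loci from 1 FPKM. Over the 2108 loci whose mean stays at 1 FPKM or more without W_Res2 and W_Res3, 129 were called, 54 higher and 75 lower, and the other 128 passed the threshold only through those libraries. Of all loci, 2.54% were called higher and 1.72% lower. An unadjusted P under 0.05 was found for 380 of the unnamed loci, and for 16.5% of all loci. Without W_Res2 and W_Res3, 119 unnamed loci met the standard, 47 of them among the 147, and in the Ballgown model 83, of which 28 were. After rescaling by median of ratios, 52 of 133 called loci (39.1%) were higher, and with quantile normalization 49 of 135 (36.3%), instead of 49% of 147. In the same comparison the T cell and leukocyte genes and the smooth muscle and red blood cell sums above did not overlap. The enterocyte genes VIL1, APOB and MTTP were also lower and the B cell genes CD79A and CD79B higher in W_Res without overlap, for instance MTTP at 198, 285 and 371 FPKM in W_Con and 157, 76.4 and 107 FPKM in W_Res. The other enterocyte genes found overlapped, for instance ANPEP at 2693, 2056 and 1339 FPKM in W_Con and 804, 482 and 2999 FPKM in W_Res. The part of these cells in the called loci was not tested.

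In weaned piglets, 69 (3.09%) met the standard, 29 higher and 40 lower in PW_Res, against 1.67% of all loci and 1.95% of named loci, and 243 had an unadjusted P under 0.05, as had 7.8% of all loci. The Ballgown model called 31, 16 higher and 15 lower, all of them among the 69. Of all loci, 0.735% were called higher and 0.934% lower. Of the 69 unnamed loci called, 42% were higher, which became 56.6% of 83 with median-of-ratios rescaling and 58.2% of 67 with quantile normalization. Of the cell markers, the enterocyte gene ANPEP was at 1863, 2278 and 1859 FPKM in PW_Con and 1680, 1031 and 338 FPKM in PW_Res, and the cell division gene TOP2A at 18.2, 16.4 and 24.3 against 8.72, 7.94 and 8.66 FPKM. CD79B and the B cell gene MS4A1 were also lower and the crypt gene LGR5 higher in PW_Res without overlap. All other markers found overlapped, among them the other enterocyte genes. FABP2, for instance, was at 131, 106 and 60.3 FPKM in PW_Con and 303, 121 and 146 FPKM in PW_Res. The part of these cells was not tested.

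The median log2 fold change of the unnamed loci was 0.084 in sucking and -0.056 in weaned piglets, and 0.066 and -0.062 over all loci. Groups did not overlap for 427 unnamed loci (19.1%) in sucking piglets, against 19.5% of all loci, and for 414 (18.5%) in weaned piglets, against 17.1%.

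At 21 days, the largest rises among loci whose groups did not overlap were MSTRG.31575, MSTRG.9944 and MSTRG.31885. MSTRG.9944 had 5.42 FPKM in W_Con1 and was listed at 0 in the other 2 W_Con libraries, while W_Res had 9.96, 11.1 and 6.89 FPKM, a log2 fold change of 2.45 (standard error 0.766, limma adjusted p = 0.169). MSTRG.31885 had 0.0105, 0.00685 and 0 FPKM in W_Con and 3.42, 4.96 and 4.94 FPKM in W_Res, a log2 fold change of 2.42 (standard error 0.542, limma adjusted p = 0.113). In weaned piglets of resveratrol sows, MSTRG.31885 was at 3.91 FPKM in PW_Res1 and listed at 0 in PW_Res2 and PW_Res3. Its 12-library mean was 1.62 FPKM and would be below 1 FPKM without W_Res2 and W_Res3. It thus passed the threshold through the group in which it was high. With both of W_Res2 and W_Res3 left out, MSTRG.9944 no longer met the standard (2.56, unadjusted P = 0.0606 in limma), and MSTRG.31885 had 2.14. In the Ballgown model neither MSTRG.9944 (1.56) nor MSTRG.31885 (1.54) met the standard.

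The largest falls at 21 days, chosen in the same way, were in MSTRG.33751, MSTRG.14563 and MSTRG.17501. MSTRG.33751 was at 21.8, 14.1 and 16.5 FPKM in W_Con, 9.87, 15 and 8.26 FPKM in PW_Con and 17.8 FPKM in PW_Res1, and was listed at 0 in all W_Res libraries and in PW_Res2 and PW_Res3 (limma adjusted p = 0.1 for W_Res against W_Con). MSTRG.14563 fell from 18.3, 7.77 and 22.4 FPKM in W_Con to 0.997, 0.138 and 2.88 FPKM in W_Res, a log2 fold change of -2.94 (standard error 0.738, limma adjusted p = 0.131). MSTRG.17501 was steady in W_Con at 49.8, 49.4 and 46.6 FPKM and at 21.8, 0.864 and 6.98 FPKM in W_Res, a log2 fold change of -2.83 (standard error 1.053, limma adjusted p = 0.221). MSTRG.17501 missed the standard without W_Res2 (-1.88), without W_Res2 and W_Res3 together (-1.12) and in the Ballgown model (-1.26), where MSTRG.33751 and MSTRG.14563 met it.

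At 28 days, MSTRG.23930 had the largest fall among called loci whose groups did not overlap. MSTRG.16882 (-3.50) and MSTRG.469 (-2.64) met the standard with overlapping groups. MSTRG.23930 was at 19.4, 31.8 and 6.33 FPKM in PW_Con and 4.47, 1.14 and 1.11 FPKM in PW_Res, a log2 fold change of -2.55 (standard error 0.548, limma adjusted p = 0.371). In sucking piglets the same locus was at 4.67, 8.69 and 6.15 FPKM in W_Con and 0.287, 0 and 1.42 FPKM in W_Res, so that all 6 resveratrol libraries lay below all 6 control libraries. The next identifier, MSTRG.23929, followed it over the 12 libraries (Pearson r = 0.929 of log2(FPKM + 1), a description). Its levels were 19.5, 30.6 and 2.83 FPKM in PW_Con and 7.54, 0.485 and 1.65 FPKM in PW_Res, which overlapped.

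MSTRG.9021 also fell in weaned resveratrol litters, from 7.05, 5.3 and 7.03 FPKM to 3.6, 0.329 and 0.223 FPKM, a log2 fold change of -1.92 (standard error 0.493, limma adjusted p = 0.418). MSTRG.12652 was at 1.6, 2.92 and 3.1 FPKM in PW_Con and listed at 0 in all PW_Res libraries (limma adjusted p = 0.557), and it was also listed at 0 in 4 of the 6 sucking libraries. Its 12-library mean was 1.18 FPKM, and its mean over the libraries outside PW_Con was below 1 FPKM. MSTRG.12652 thus passed the threshold through the group in which it was high. Besides MSTRG.31575, MSTRG.40028 and MSTRG.10267 had the largest rises without overlap. MSTRG.40028 had 9.61, 0.188 and 6.91 FPKM in PW_Con and 66.6, 15.9 and 29.9 FPKM in PW_Res, a log2 fold change of 2.82 (standard error 1.092, limma adjusted p = 0.598), and it missed the standard without PW_Con2 (1.84) or PW_Res1 (2.30). MSTRG.10267, with 11 transcripts, rose from 1.55, 0.782 and 0.75 FPKM to 6.84, 4.75 and 14.1 FPKM, a log2 fold change of 2.14 (standard error 0.655, limma adjusted p = 0.47). MSTRG.23930, MSTRG.9021 and MSTRG.10267 met the standard in the Ballgown model, and MSTRG.12652 and MSTRG.40028 (2.83) did not.

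Over both ages, all 6 resveratrol libraries lay outside the range of all 6 control libraries for 15 unnamed loci (0.671%), 5 higher and 10 lower, against 0.693% of all loci tested. The share was thus near that of all loci. Besides MSTRG.31575 and MSTRG.23930, 4 of these 15 are described, chosen after their values were seen. MSTRG.5081 was at 7.74, 5.61 and 6.35 FPKM in W_Con, 8.22, 4.33 and 6.11 FPKM in PW_Con, 3.08, 2.23 and 2.81 FPKM in W_Res and 2.77, 2.75 and 3.19 FPKM in PW_Res. Its log2 fold change was -1.03 in sucking piglets, which met the standard, and -0.85 in weaned piglets (limma adjusted p = 0.102 and 0.418). In sucking piglets it was inside the fold limit without W_Con1 (-0.92), without W_Res2 (-0.93) and in the Ballgown model (-0.91).

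MSTRG.17419 was at 14.7 to 20.3 FPKM in the control libraries and 6.92 to 14 FPKM in the resveratrol libraries. MSTRG.1268 was at 3.94 to 6.67 FPKM in control and 6.74 to 14.4 FPKM in resveratrol libraries, and MSTRG.1177 at 8.55 to 11.9 and 13 to 16.9 FPKM. Differences of these 3 loci were between -0.690 and 0.955 on the log2 scale, below the fold limit of the standard.

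**Figure D3:**
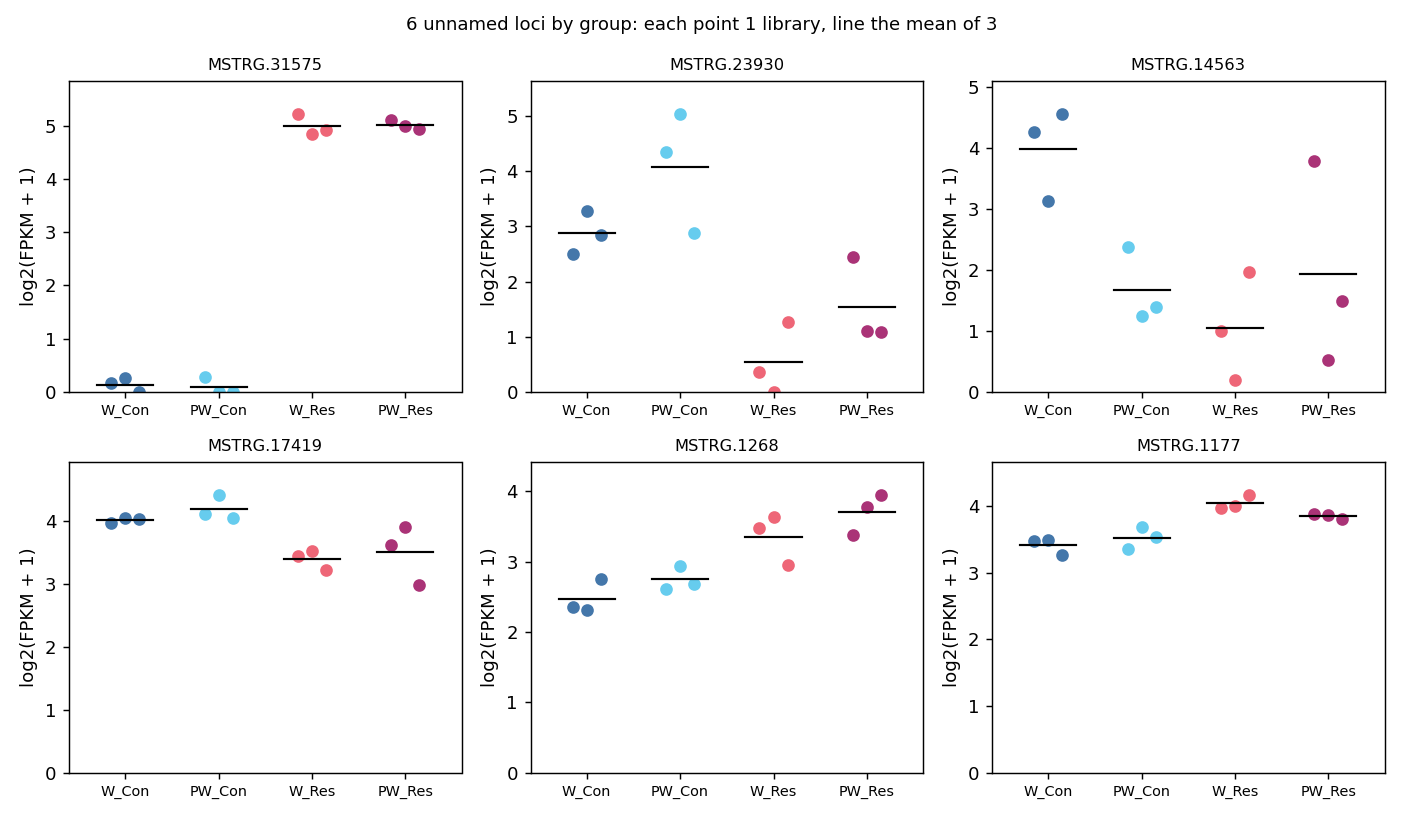
Log2(FPKM + 1) of 6 unnamed loci in W_Con, PW_Con, W_Res and PW_Res, with 1 point per library and a line at the mean of 3. MSTRG.31575 is near 0 in all control libraries and near 5 in all resveratrol libraries. MSTRG.23930 and MSTRG.17419 are lower and MSTRG.1268 and MSTRG.1177 higher in all 6 resveratrol libraries, while in MSTRG.14563 the 3 W_Con libraries are above all PW_Con and W_Res libraries.

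Weaned and sucking piglets of control sows differed at the standard in 105 of the 2236 unnamed loci (4.7%), 42 higher and 63 lower in PW_Con, against 3.1% of all loci tested and 3.67% of named loci. In limma 0 had an adjusted p under 0.05 (lowest 0.0913), and 341 had an unadjusted P under 0.05, as had 13.8% of all loci. Of all loci, 1.3% were called higher and 1.8% lower. The median log2 fold change was -0.049, and -0.028 over all loci. PW_Con and W_Con did not overlap for 528 unnamed loci (23.6%), against 23.2% of all loci.

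Markers of other cells and of the gut segment moved in the same comparison. The enterocyte gene FABP2 was at 260, 759 and 419 FPKM in W_Con and 131, 106 and 60.3 FPKM in PW_Con, and MTTP, which loads lipid onto lipoproteins, at 198, 285 and 371 against 135, 78 and 40.5 FPKM. APOB was lower in the same way. TFF3, a goblet cell peptide, was at 313, 610 and 350 FPKM in W_Con and 995, 683 and 1364 FPKM in PW_Con. SLC51A, MKI67, CD79A, CD79B and CPA1 were also higher in PW_Con. The groups did not overlap in any of these genes. All other markers found overlapped, among them the enterocyte genes VIL1, SI, ANPEP and APOA4. SPINK4 was at 139, 239 and 204 FPKM in W_Con and 205, 78.7 and 180 FPKM in PW_Con. CD3E was at 82.5, 49.1 and 54.8 against 31.7, 50.1 and 28.9 FPKM, and OLFM4 at 803, 630 and 350 against 234, 345 and 1193 FPKM. The part of these cells in the 105 called loci was not tested.

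Of the 5 largest falls in PW_Con among called loci without overlap, MSTRG.6530 and MSTRG.27950 had the lowest P. MSTRG.6530 fell from 4.33, 2.93 and 6.59 FPKM in W_Con to 0.392, 0.192 and 0.967 FPKM in PW_Con, a log2 fold change of -1.87 (standard error 0.329, limma adjusted p = 0.0913). In resveratrol litters it was at 2.57, 1.34 and 1.28 FPKM in sucking and 2.66, 0.834 and 1.76 FPKM in weaned piglets, which overlapped. MSTRG.27950, which lists an Ensembl transcript, fell from 14.3, 8.14 and 4.14 FPKM to 1.43, 1.84 and 0.808 FPKM, a log2 fold change of -1.95 (standard error 0.402, limma adjusted p = 0.0949), and it was at or below 1.7 FPKM in all resveratrol libraries.

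MSTRG.14563, described above in sucking piglets, fell from 18.3, 7.77 and 22.4 FPKM to 4.18, 1.37 and 1.61 FPKM in PW_Con, a log2 fold change of -2.31 (standard error 0.738, limma adjusted p = 0.199). The other 2 falls rested on values listed at 0. MSTRG.29459 was at 9.2, 12.6 and 16.6 FPKM in W_Con and at 5.81 FPKM in PW_Con3 only, and it missed the standard without any 1 of W_Con1, W_Con2, W_Con3, PW_Con1 and PW_Con2 (-3.03 to -2.37, against -2.83). MSTRG.36986 was at 25.7, 23.5 and 20.2 FPKM in W_Con and 15.8, 12 and 0 FPKM in PW_Con (-1.997), and it missed the standard without any 1 W_Con library and without PW_Con3, where its log2 fold change was -0.70. MSTRG.6530 and MSTRG.27950 met the standard in the Ballgown model, and MSTRG.14563 (-2.23), MSTRG.29459 (-2.67) and MSTRG.36986 (-1.98) did not.

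Among the rises in PW_Con, MSTRG.31393 had 0.533, 0.168 and 0.83 FPKM in W_Con and 2.73, 2.57 and 5.44 FPKM in PW_Con, a log2 fold change of 1.57 (standard error 0.274, limma adjusted p = 0.0913). MSTRG.33008 rose from 1.75, 1.93 and 1.58 FPKM to 9.29, 14.8 and 11.7 FPKM, a log2 fold change of 2.21 (standard error 0.68, limma adjusted p = 0.191), whereas in resveratrol litters it ran from 1.18 to 14.8 FPKM at 21 days and from 1.34 to 9.6 FPKM at 28 days. MSTRG.9662 rose from 3.41, 5.7 and 5.89 FPKM to 34.7, 20.5 and 10.3 FPKM (log2 fold change 1.80, standard error 0.539, limma adjusted p = 0.182). In these 3 loci the control groups did not overlap, and the resveratrol groups did, except that all PW_Res libraries of MSTRG.31393 but 1 lay above W_Res.

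MSTRG.11762 was at 12.2, 0.00384 and 10.2 FPKM in W_Con and 17.1, 25.1 and 47.5 FPKM in PW_Con, a log2 fold change of 2.42 (standard error 0.781, limma adjusted p = 0.203), or 1.22 without W_Con2. Its resveratrol libraries did not overlap either, with 12.1, 10.7 and 6.27 FPKM in W_Res and 27.4, 25.5 and 35.8 FPKM in PW_Res. MSTRG.469 was at 5.39, 0 and 3.17 FPKM in W_Con and 17.9, 11.6 and 14.1 FPKM in PW_Con (log2 fold change 2.36, standard error 0.935, limma adjusted p = 0.296), and it missed the standard without W_Con2 (1.57), PW_Con1 (2.21) or PW_Con3 (2.37). MSTRG.31393, MSTRG.33008 and MSTRG.9662 met the standard in the Ballgown model, and MSTRG.11762 (2.38) and MSTRG.469 (2.51) did not.

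In resveratrol litters, 124 unnamed loci (5.55%) met the standard, 34 higher and 90 lower in PW_Res, against 3.73% of all loci and 4.03% of named loci. Over the 2108 loci that stay at the threshold without W_Res2 and W_Res3, 104 were called, 34 higher and 70 lower. In limma 0 had an adjusted p under 0.05 (lowest 0.169), and 379 had an unadjusted P under 0.05, as had 15.6% of all loci. Of all loci, 0.966% were called higher and 2.77% lower. The direction depended on the scaling. The median log2 fold change over all loci was -0.150 and that of the unnamed loci -0.173, and after median-of-ratios rescaling the median over all loci was 0.0063. The called unnamed loci were then 59 higher and 43 lower, and with quantile normalization 53 higher and 39 lower. PW_Res and W_Res did not overlap for 485 unnamed loci (21.7%), against 20.2% of all loci. Without W_Res2 and W_Res3 together, 67 met the standard, of which 34 were among the 124, and without W_Res1 231 did. The Ballgown model called 33, 22 higher and 11 lower, of which 6 were among the 124. None of the 15 calls of this comparison that were named by rule met the standard in that model. The summed red blood cell genes (79.7 to 131 FPKM in W_Res, 6.77 to 15.3 in PW_Res) and smooth muscle genes (644 to 3855 against 192 to 619) did not overlap between these groups. VIL1 was higher in PW_Res (890 to 1062 FPKM) than in W_Res (296 to 801). The other enterocyte genes found overlapped, for instance FABP2 at 454, 96.2 and 299 FPKM in W_Res and 303, 121 and 146 FPKM in PW_Res. The part of these cells in the 124 called loci was not tested.

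Of the falls in PW_Res, MSTRG.10102 went from 84.3, 158 and 23.5 FPKM in W_Res to 22.5, 13 and 7.26 FPKM, a log2 fold change of -2.31 (standard error 0.659, limma adjusted p = 0.195). MSTRG.25319 went from 9.13, 13.9 and 4.82 FPKM to 2.59, 1.18 and 0.318 FPKM, a log2 fold change of -2.14 (standard error 0.482, limma adjusted p = 0.169). MSTRG.13380 went from 2.46, 18.2 and 4.6 FPKM to 0.21, 1.68 and 0.378 FPKM, a log2 fold change of -2.13 (standard error 0.529, limma adjusted p = 0.173). In all 3 loci W_Res2 was the highest library of the 12, as it was for the summed smooth muscle markers (3855 FPKM), and the part of those cells in these differences was not tested. MSTRG.15899, the fourth most abundant of the unnamed loci, fell from 361, 935 and 426 FPKM to 282, 45 and 128 FPKM, a log2 fold change of -2.14 (standard error 0.651, limma adjusted p = 0.2), and W_Res2 was its highest library as well. Without W_Res2 and W_Res3, MSTRG.15899 no longer met the standard (-1.61, unadjusted P = 0.122 in limma), while the log2 fold changes of MSTRG.10102 (-2.61), MSTRG.25319 (-2.22) and MSTRG.13380 (-1.07) against W_Res1 alone kept their sign. With the Ballgown model MSTRG.10102 was at -0.67, MSTRG.25319 at -1.42, MSTRG.13380 at -0.56 and MSTRG.15899 at 0.27, with unadjusted P from 0.238 to 0.821. MSTRG.18193 was at 3.66, 2.86 and 3.97 FPKM in W_Res and listed at 0 in all PW_Res libraries (limma adjusted p = 0.169). Its 12-library mean was 1.44 FPKM, and its mean over the libraries outside W_Res was below 1 FPKM. MSTRG.18193 thus passed the threshold through the group in which it was high.

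MSTRG.28720 had the largest rise in PW_Res among called loci whose groups did not overlap. It was at 0, 0 and 2.91 FPKM in W_Res and 6.04, 6.72 and 8.29 FPKM in PW_Res, a log2 fold change of 2.34 (standard error 0.432, limma adjusted p = 0.169). Over its alternatives adjusted p ran from 0.000866 to 1, the lowest without W_Res3, where both W_Res libraries left are listed at 0. In the Ballgown model it had 2.21 (unadjusted P = 0.0667). In control litters the locus was at 3.95, 5.13 and 5.12 FPKM at 21 days and 7.65, 10.2 and 11.5 FPKM at 28 days, which did not overlap either. MSTRG.30838 rose from 9.8, 9.1 and 7.25 FPKM to 20.5, 35.7 and 32.5 FPKM (log2 fold change 1.62, standard error 0.33, limma adjusted p = 0.169), while its control groups overlapped, and it had 0.95 in the Ballgown model (unadjusted P = 0.212).

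MSTRG.5642 rose from 44.1, 11.1 and 23.5 FPKM to 73.5, 82.2 and 74 FPKM (log2 fold change 1.71, standard error 0.4, limma adjusted p = 0.169), and had 0.78 without W_Res2 and W_Res3, inside the fold limit. MSTRG.815 rose from 200, 237 and 57.7 FPKM to 333, 377 and 673 FPKM (log2 fold change 1.64, standard error 0.493, limma adjusted p = 0.2), and had 1.01 without W_Res3. MSTRG.38499 was at 0.902, 0.609 and 0.164 FPKM in W_Res and 4.56, 8.73 and 1.01 FPKM in PW_Res (log2 fold change 1.65, standard error 0.723, limma adjusted p = 0.306). It missed the standard without any 1 of the W_Res libraries, PW_Con1, PW_Res1 and PW_Res2 (1.13 to 1.80) and without W_Res2 and W_Res3 together (1.33). The Ballgown values were -0.022 for MSTRG.5642, 1.196 for MSTRG.815 and 1.116 for MSTRG.38499, and none met the standard.

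The 2 weaning comparisons use separate piglets. Of the 2236 unnamed loci, 6 (0.268%) met the standard in the same direction in both, 2 higher and 4 lower, against 0.247% of all loci, and 0 met it in opposite directions. The 6 loci are 5.71% of the 105 calls in control litters and 4.84% of the 124 calls in resveratrol litters. Over the 2236 loci, the log2 fold changes of the 2 comparisons had a Pearson r of 0.0902, a description across loci.

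MSTRG.13380 had the largest differences of the 6, with 1.66, 3.94 and 3.15 FPKM in W_Con and 0, 0.00542 and 0.124 FPKM in PW_Con beside the fall in resveratrol litters given above. Its log2 fold change in control litters was -1.86 (standard error 0.529, limma adjusted p = 0.167). MSTRG.38284 had 5.41, 4.38 and 1.66 FPKM in W_Con, 1.13, 2.11 and 0.422 FPKM in PW_Con, 6.3, 10.2 and 3.63 FPKM in W_Res and 2.12, 1.53 and 1.4 FPKM in PW_Res. MSTRG.40114 had 6.99, 3.49 and 1.36 FPKM in W_Con, 1.16, 1.72 and 0.428 FPKM in PW_Con, 4.31, 8.17 and 4.4 FPKM in W_Res and 1.6, 0.753 and 2.55 FPKM in PW_Res. In both of the latter loci the control groups overlapped and the resveratrol groups did not.

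MSTRG.8109 fell by 1.22 in control and 1.00 in resveratrol litters with overlapping groups, and MSTRG.24255 and MSTRG.26383 rose by 1.27 and 1.33 and by 1.09 and 1.11. Each of these loci except MSTRG.13380 missed the standard in control litters without at least 1 single library. These were W_Con1, W_Con2 or PW_Con3 for MSTRG.38284 (-0.97 to -0.81) and MSTRG.40114 (-1.10 to -0.68), and W_Con2 or PW_Con3 for MSTRG.8109 (-1.07 and -0.88). For MSTRG.26383 they were W_Con1, W_Con2, PW_Con1 or PW_Con2 (0.82 to 1.11), and for MSTRG.24255 W_Con1, W_Con2, any PW_Con library, W_Res3 or PW_Res2 (1.02 to 1.41). In resveratrol litters, MSTRG.8109 missed it without W_Res2, W_Res3, PW_Res2 or PW_Res3 (-1.09 to -0.68), MSTRG.24255 without W_Res2, W_Res3, PW_Res1 or PW_Res2 (0.63 to 1.35) and MSTRG.26383 without any W_Res library or PW_Res3 (0.55 to 1.13). Without W_Res2 and W_Res3 together, MSTRG.13380 and MSTRG.38284 (-1.45) met the standard in resveratrol litters, and the other 4 did not. For MSTRG.24255 the log2 fold change was then -0.02, and without W_Res1 it was 2.01. In the Ballgown model only MSTRG.13380 met the standard in control litters (-1.63), and none of the 6 did in resveratrol litters. MSTRG.8109 also missed it in resveratrol litters with median-of-ratios rescaling (-0.81) and quantile normalization (-0.83).

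**Figure D4:**
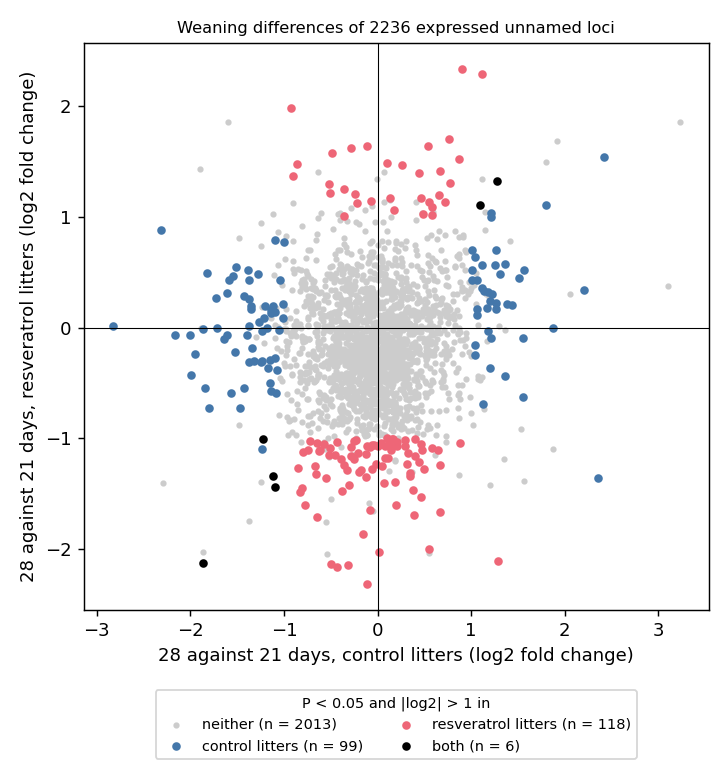
Log2 fold change of PW_Con against W_Con (horizontal) and of PW_Res against W_Res (vertical) for each of the 2236 expressed unnamed loci, coloured by the comparison in which the standard was met. The cloud has no clear slope (r = 0.0902), and 6 loci met the standard in both comparisons.

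Across both diets, all 6 weaned libraries lay outside the range of the 6 sucking libraries for 39 unnamed loci (1.74%), 14 higher and 25 lower. The share was 1.33% of all loci tested and 1.53% of named loci from 1 FPKM. The 39 include MSTRG.28720, MSTRG.11762 and MSTRG.26383. MSTRG.38734, chosen after its values were seen, was at 7.64, 9.85 and 9.58 FPKM in W_Con, 5.2, 4.74 and 5.19 FPKM in PW_Con, 6.25, 8.57 and 14.2 FPKM in W_Res and 3.99, 3.5 and 4.6 FPKM in PW_Res. Its log2 fold change was -0.72 in control and -1.02 in resveratrol litters (limma adjusted p = 0.222 and 0.169). MSTRG.13201, chosen in the same way, was at 6.18 to 9.4 FPKM in sucking and 3.87 to 5.22 FPKM in weaned libraries, with log2 fold changes of -0.83 and -0.49.

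The difference between diets in the weaning response met the standard for 190 unnamed loci (8.5%), 81 more positive and 109 more negative in resveratrol litters. It did so for 6.78% of all loci and 7.51% of named loci from 1 FPKM. Over the 2108 loci described above, 173 met it, 81 positive and 92 negative. In limma 0 had an adjusted p under 0.05 (lowest 0.29), and 297 had an unadjusted P under 0.05, as had 12.4% of all loci. Of all loci, 2.09% were called positive and 4.69% negative. With median-of-ratios rescaling 63.5% of 189 were positive, and with quantile normalization 62.2% of 188, instead of 42.6%. Without W_Res2 and W_Res3, 137 met the standard, 74 of them among the 190, and in the Ballgown model 57, of which 23 were. The most negative values were those of MSTRG.469 at -3.72 and MSTRG.7896 at -3.39, and the most positive those of MSTRG.17501 at 3.34 and MSTRG.14563 at 3.20 (limma adjusted p from 0.303 to 0.392), and none of these met the standard in the Ballgown model. MSTRG.7896 was at 0.745, 0.757 and 0.0281 FPKM in W_Con, 0.0299, 6.1 and 5.25 FPKM in PW_Con, 0.103, 17.4 and 4.72 FPKM in W_Res and 0.46, 0 and 0 FPKM in PW_Res, and all groups overlapped.

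The 10 most abundant unnamed loci had means from 117 to 541 FPKM. MSTRG.1759, with 11 transcripts, led with 670, 288 and 431 FPKM in W_Con, 706, 660 and 427 FPKM in PW_Con, 223, 408 and 726 FPKM in W_Res and 665, 494 and 791 FPKM in PW_Res, and all groups overlapped. The steadiest of the 10 was MSTRG.185, whose highest library (332 FPKM) was 1.93 times its lowest (172 FPKM). The ratio was 2.22 for MSTRG.18146, 3.55 for MSTRG.1759, 5.66 for MSTRG.28785, 2.85 for MSTRG.14847, 2.93 for MSTRG.35483, 4.03 for MSTRG.38171, 7.76 for MSTRG.18660, 11.7 for MSTRG.815 and 20.8 for MSTRG.15899. MSTRG.1759, MSTRG.18660, MSTRG.35483, MSTRG.14847, MSTRG.185 and MSTRG.18146 had no unadjusted P under 0.05 in limma in any comparison. MSTRG.38171 was the only locus of the 10 with an Ensembl transcript.

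MSTRG.28785, the second most abundant with 8 transcripts, was at 222, 322 and 203 FPKM in W_Con and 732, 738 and 690 FPKM in PW_Con. In resveratrol litters it was at 389, 491 and 624 FPKM at 21 days and 553, 131 and 449 FPKM at 28 days. All PW_Con libraries lay above all others, and W_Con lay below W_Res. It rose by 1.56 on the log2 scale with weaning in control litters (standard error 0.444, limma adjusted p = 0.168), and PW_Res against W_Res gave -0.62 (standard error 0.444, limma adjusted p = 0.521). The difference between these was -2.18 (standard error 0.628, unadjusted P = 0.0049 and adjusted p = 0.29 in limma), and -1.84 without W_Res2 and W_Res3 (unadjusted P = 0.0506). The rise in control litters met the standard in the Ballgown model (1.69), and the difference did not (-1.40). Beside these values, distal small intestine markers summed to 8228, 1337 and 61.6 FPKM in W_Con, 9919, 9064 and 6708 FPKM in PW_Con, 221, 51.8 and 6323 FPKM in W_Res and 24495, 89.3 and 99 FPKM in PW_Res. The part of the gut segment in the difference was not tested.

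**Figure D5:**
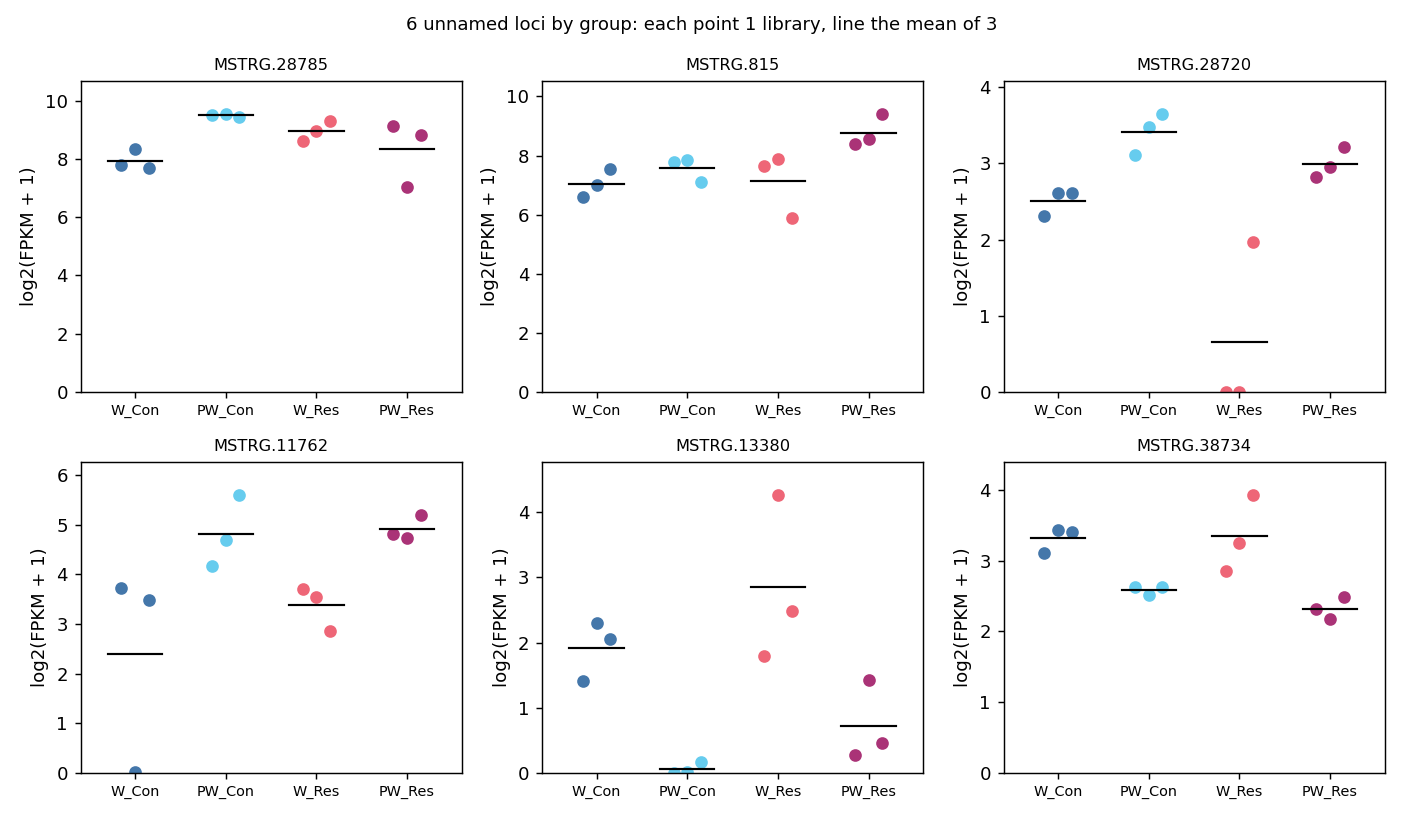
Log2(FPKM + 1) of 6 unnamed loci in W_Con, PW_Con, W_Res and PW_Res, with 1 point per library and a line at the mean of 3. MSTRG.28785 is highest in the 3 PW_Con libraries, MSTRG.815 in the 3 PW_Res libraries. MSTRG.28720 and MSTRG.11762 are higher and MSTRG.13380 and MSTRG.38734 lower in weaned than in sucking piglets in both diets.

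Loci with consecutive identifiers were compared with loci far apart in number, and whether neighbours in number are neighbours in the genome was not tested. Over the 12 libraries, 260 pairs of expressed unnamed loci with consecutive identifiers had a median Pearson r of 0.24 in log2(FPKM + 1), and 10 pairs (3.85%) an r above 0.9. Over 122 pairs that were 1000 identifiers apart the median was 0.0784, with 2 pairs (1.64%) above 0.9. For an unnamed locus next to a named one, 1310 pairs had a median of 0.175 and 2.29% above 0.9, and 1280 pairs 1000 identifiers apart had 0.015 and 0.156%. The points share their libraries and groups, and these values are a description. MSTRG.1230 and MSTRG.1231 (r = 0.995) had 13 and 11.6 FPKM in PW_Con3 and at most 1.45 FPKM in any other library. MSTRG.5754 and MSTRG.5755 (r = 0.94) were present in all libraries at 31.1 to 67.9 and 27.7 to 71.8 FPKM.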

How the data were processed

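Poly(A) RNA from the jejunum of 12 piglets was sequenced as 150-bp paired-end reads. According to the study's methods, the authors used TopHat for alignment to the Ensembl pig genome, then StringTie and Ballgown for expression levels. The submitters' processing notes name HISAT2 2.0, StringTie 1.3.0, Bowtie 0.12.2 and the builds Sscrofa10.2 and mm8, with no roles given. The deposited values are FPKM per locus for 12 libraries, which were not scaled further. The table holds no counts, and no counting interval is given. Read totals appear in the study's supplement for 6 libraries, numbered there within sucking and weaned piglets, and were not used here. Depth of the other libraries is not given in the sources used here. Summed FPKM per library was 313171 to 334469. Columns for W_Con, PW_Con, W_Res and PW_Res were matched by title, and 0 value columns were left over.

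The unnamed loci are those with a dot as gene name and a mean of at least 1 FPKM. All 19049 loci averaging 0.5 FPKM or more, named and unnamed, were fitted as log2(FPKM + 1) with limma 3.58.1 in R 4.3.3 (lmFit, eBayes with a trend) over 4 group means with 8 residual degrees of freedom. P was adjusted by Benjamini-Hochberg over all 19049. Shares and numbers of loci were compared by exact permutation tests over the 400 relabellings of all 12 libraries within strata. Fewer were possible where libraries were left out or a replicate block was used. In data simulated for PW_Con against W_Con over 19049 loci, 196 of 200 loci changed by a log2 fold change of 2 (98%) met the standard, with a wrong sign in 0 of them, and 1.08% of unchanged loci were called.

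Loci were named by rule: the 10 most abundant; the 5 (weaning) or 3 (diet) largest rises and falls among called loci without overlap; the 2 largest differences between diets in each direction; loci with an adjusted p under 0.05; 6 called in both weaning comparisons; 3 on each side of the threshold; and the 3 most confined to 1 library. The unnamed loci, the marker lists and the rules were chosen with earlier results of these data known. Alternatives were other pseudocounts, filters and scalings, a linear model with a library covariate as in Ballgown, a replicate block and leaving out libraries. The cell type lists were proximal small intestine enterocyte, distal small intestine, goblet and secretory, crypt and cell division, smooth muscle, lymphocyte, red blood cell and pancreas.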

Additional observations from a re-analysis of the deposited data

Results flagged for a closer look

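The difference between diets in the weaning response had an unadjusted P under 0.05 in the interaction test for 297 of the 2236 unnamed loci. The standard was met by 190 (8.5%), against 6.78% of all loci and 7.51% of named loci from 1 FPKM. The 4 loci given here are the largest such differences, 2 in each direction, and were picked for their size. The differences of the log2 fold changes, resveratrol minus control litters, were -3.72 for MSTRG.469, -3.39 for MSTRG.7896, 3.34 for MSTRG.17501 and 3.20 for MSTRG.14563. The limma adjusted p were 0.322, 0.337, 0.392 and 0.303, so that none passed the correction over all loci. MSTRG.17501 missed the standard in 9 of the 12 fits that left out 1 library, and MSTRG.7896 without PW_Con2, PW_Con3 or W_Res2, while MSTRG.469 and MSTRG.14563 met it in all 12. Without W_Res2 and W_Res3 together, the values were -4.23 for MSTRG.469, -1.25 for MSTRG.7896, 1.63 for MSTRG.17501 and 3.25 for MSTRG.14563, and MSTRG.7896 and MSTRG.17501 no longer met the standard, in a fit with W_Res1 as the only W_Res library.

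The unnamed loci below a mean of 1 FPKM are outside the comparisons of the report. In W_Res2, 5904 of them reached 1 FPKM and in W_Res3 4632, where the highest control library, W_Con1, had 1261.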

How the results depend on the processing

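The share of summed FPKM had no stable direction. Its difference between ages was 0.101 percentage points with the threshold at 5 FPKM, 0.0331 without W_Res2 and W_Res3, and -0.108 to 0.0666 with 1 library left out. Its difference between diets was -0.0370 without W_Res2 and W_Res3, and -0.0463 to 0.128 with 1 library left out. The number of loci detected differed between diets by 64 with the threshold at 0.5 FPKM, 0.167 with it at 5 FPKM and 0.667 when detection meant above 0. Between ages it differed by -408 at 0.5 FPKM (exact permutation p = 0.015), -291 at 0.5 FPKM without W_Res2 and W_Res3 (p = 0.0625), -1.83 at 5 FPKM (p = 0.305), -5 when detection meant above 0 (p = 0.31), -105 without W_Res2 and W_Res3 (p = 0.15), and by -113 to -59.3 with 1 library left out.

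The number of unnamed loci at the standard was 189 in PW_Con against W_Con with a pseudocount of 0.1, and 42 with a filter at 5 FPKM. For PW_Res against W_Res it was 237, 32, 33 with the Ballgown linear model (6 among the 124) and 67 without W_Res2 and W_Res3, which leaves 1 W_Res library. For W_Res against W_Con it was 235, 44 and 83 (Ballgown, 28 among the 147), for PW_Res against PW_Con 144, 24 and 31, and for the difference between diets 52 (filter) and 57 (Ballgown). With 1 library left out, these numbers ran from 94 to 140, 90 to 231, 104 to 194, 56 to 93 and 130 to 260. Under the Ballgown model, which has a library covariate and no moderated variance, 15 of the 50 results for loci named by rule kept their side of the standard, 31 kept their direction without meeting it, and 4 changed sign. Of the last, MSTRG.15899 was at 0.27, MSTRG.5642 at -0.022, MSTRG.24255 at -1.06 and MSTRG.8109 at 0.57, and MSTRG.24255 was at -0.022 without W_Res2 and W_Res3. The cause was not tested. Same-numbered libraries had correlated deviations of -0.205 to 0.255, and differently numbered libraries -0.213 to 0.300. With 3 libraries per group, these overlapping ranges cannot show whether the numbers pair the samples. In the paper's design, 1 male piglet was taken from each litter at each age. Control libraries of different age may therefore share a litter, and which of them do is not given. With a replicate block the numbers called were 105, 120, 140, 69 and 211, and the p of the difference in detection between ages was 0.0938 (exact permutation). Depth was not used, and 3 libraries per group limit the precision.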
